A study of Mus musculus with 19 samples.

Results

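The genes described here are 7 genes that astrocytes switch on when they become reactive, namely Gfap, Vim, Serpina3n, Osmr, Lcn2, Cd44 and Stat3, together with 3 genes that mark astrocytes whether or not they are reactive, namely Aqp4, Aldh1l1 and Slc1a2. They were found in the 19 count files through their Ensembl identifiers, which were paired with these symbols in GENCODE release M21. All 10 were present among the 48709 genes of the files and all 10 passed the filter on low counts that left 19297 genes for testing. The rule that selects them uses their names and no measured value. Positions of genes are given on mm10 (GRCm38) from GENCODE M21.

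RNA from the microdissected CA1 region of the hippocampus was sequenced from mice aged 7 months. The WT control group (n = 6) held wild-type littermates, the APP control group (n = 6) held APPPS1-21 mice, and the APP anti-miR-mix group (n = 7) held APPPS1-21 mice that received a mixture of inhibitors, against miR-148a-3p, miR-146a-5p and miR-181a-5p. It is called the mix group here. The APPPS1-21 line carries mutant human APP under Thy1 regulatory sequence, so that it is expressed in neurons and amyloid is deposited from a young age. Lipid nanoparticles were injected into the dorsal hippocampus of all animals, carrying a control oligonucleotide in both control groups, and no uninjected group was analysed here. A response of astrocytes to the injection itself, and whether it was alike in the groups, was not tested. The mixture's name also stands in the wild-type titles. The study's account, a control oligonucleotide, was followed.

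Astrocytes take up glutamate and potassium, regulate water flow at the vessel wall and supply neurons with metabolites. After injury, inflammation or amyloid deposition they become reactive: their intermediate filaments thicken, and they secrete protease inhibitors, lipid carriers and iron-binding proteins. Cytokines of the interleukin-6 (IL-6) family, oncostatin M among them, are a main trigger. They bind a receptor chain such as OSMR paired with gp130, which activates JAK kinases and then the transcription factor STAT3, and STAT3 raises the transcription of Gfap and other reactive genes. Around amyloid plaques, reactive astrocytes lie beside activated microglia.

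The treatment was aimed at 3 mature microRNAs. They are printed from RefSeq (GRCm38.p6) with the seed, bases 2 to 8, in capitals. None of the 3 seeds is shared.

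mmu-miR-181a-5p: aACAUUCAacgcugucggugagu
mmu-miR-146a-5p: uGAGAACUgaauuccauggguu
mmu-miR-148a-3p: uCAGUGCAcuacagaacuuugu

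The first is encoded at chr1:137966468-137966490 and at chr2:38852741-38852763 (both on the plus strand), the second at chr11:43374435-43374456 and the third at chr6:51269829-51269850 (both on the minus strand). The inhibitors that the study lists are exact complements of these microRNAs. Their bases opposite the seed are given in capitals.

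inhibitor of miR-181a-5p: actcaccgacagcgtTGAATG
inhibitor of miR-146a-5p: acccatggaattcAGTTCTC
inhibitor of miR-148a-3p: caaagttctgtagTGCACT

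The inhibitors are 21, 20 and 19 bases long and cover 6, 7 and 6 of the 7 seed bases. The longest run of the control oligonucleotide that is complementary to any of the 3 microRNAs is 4 bases.

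The 3′ untranslated regions (UTRs) of the 10 genes in GENCODE M21 were searched for the complement of each seed, written here as DNA.

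seed match of miR-181a-5p: TGAATGT
seed match of miR-146a-5p: AGTTCTC
seed match of miR-148a-3p: TGCACTG

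Matches were found in 3 of the 10 genes, Stat3, Slc1a2 and Aqp4, while 36.2% of the tested genes with an annotated 3′ UTR hold at least one. Matches to miR-181a-5p occurred in 19% of the 15384 tested genes with such a UTR, matches to miR-146a-5p in 13.1% and matches to miR-148a-3p in 15.5%. The Stat3 match and those of Slc1a2 are shown here because they show where the seeds of the inhibited microRNAs match these genes. The match is in capitals, and each stretch reads 5′ to 3′ on the transcript.

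Stat3, miR-148a-3p: gagcccagcccTGCACTGggtgcctcggtg
Slc1a2, miR-148a-3p: ttacctttttgTGCACTGtctaagtagaat
Slc1a2, miR-181a-5p: catcgtagatcTGAATGTccataatgatga
Slc1a2, miR-146a-5p: tttcattagaaAGTTCTCctcttgatttac

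The Stat3 match lies at chr11:100886275-100886281 (minus strand, mm10). Those of Slc1a2 lie at chr2:102782083-102782089, chr2:102784233-102784239 and chr2:102786663-102786669 (plus strand) in a UTR of 9250 bases, which holds 6 matches in all. Aqp4 has 1 match each for miR-181a-5p and miR-148a-3p. The 3′ UTRs of the other 7 genes hold none. A search by mouse gene symbol found none of the 10 genes among the study's predicted targets. Whether symbols are written in the same way there was not tested, so their absence cannot be concluded. The study's separate list of genes with binding sites for these microRNAs was not searched.

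The 10 genes differ widely in level. Per transcript length, in TPM, the length-corrected share of transcripts, averaged over the 19 libraries, Gfap was highest at 1354 ± 643 (SD) and Slc1a2, the main glutamate transporter of astrocytes, followed at 1133 ± 92.3. The order of these 2 differed between groups: Slc1a2 was higher in WT control (1141 against 630.5 TPM for Gfap), and Gfap was higher in APP control (1718 against 1093) and in the mix group (1663 against 1160). Serpina3n had 289 ± 98.0 TPM, Aqp4 122.5 ± 28.2, Vim 108 ± 35.7, Lcn2 62.9 with an SD of 42, Aldh1l1 56.4 ± 7.17 and Stat3 36.0 ± 5.68. The receptor chain Osmr at 7.65 ± 2.61 TPM and the hyaluronan receptor Cd44 at 7.32 ± 2.68 were lowest. In this order only Slc1a2 and Serpina3n, and Stat3 and Osmr, were neighbours whose 19 values did not overlap. Within a group, the SD of the normalized counts was 8.67 to 9.45% of the mean for Slc1a2, 9.7 to 12.3% for Stat3 and 54.2 to 76.2% for Lcn2.

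**Figure D1:**
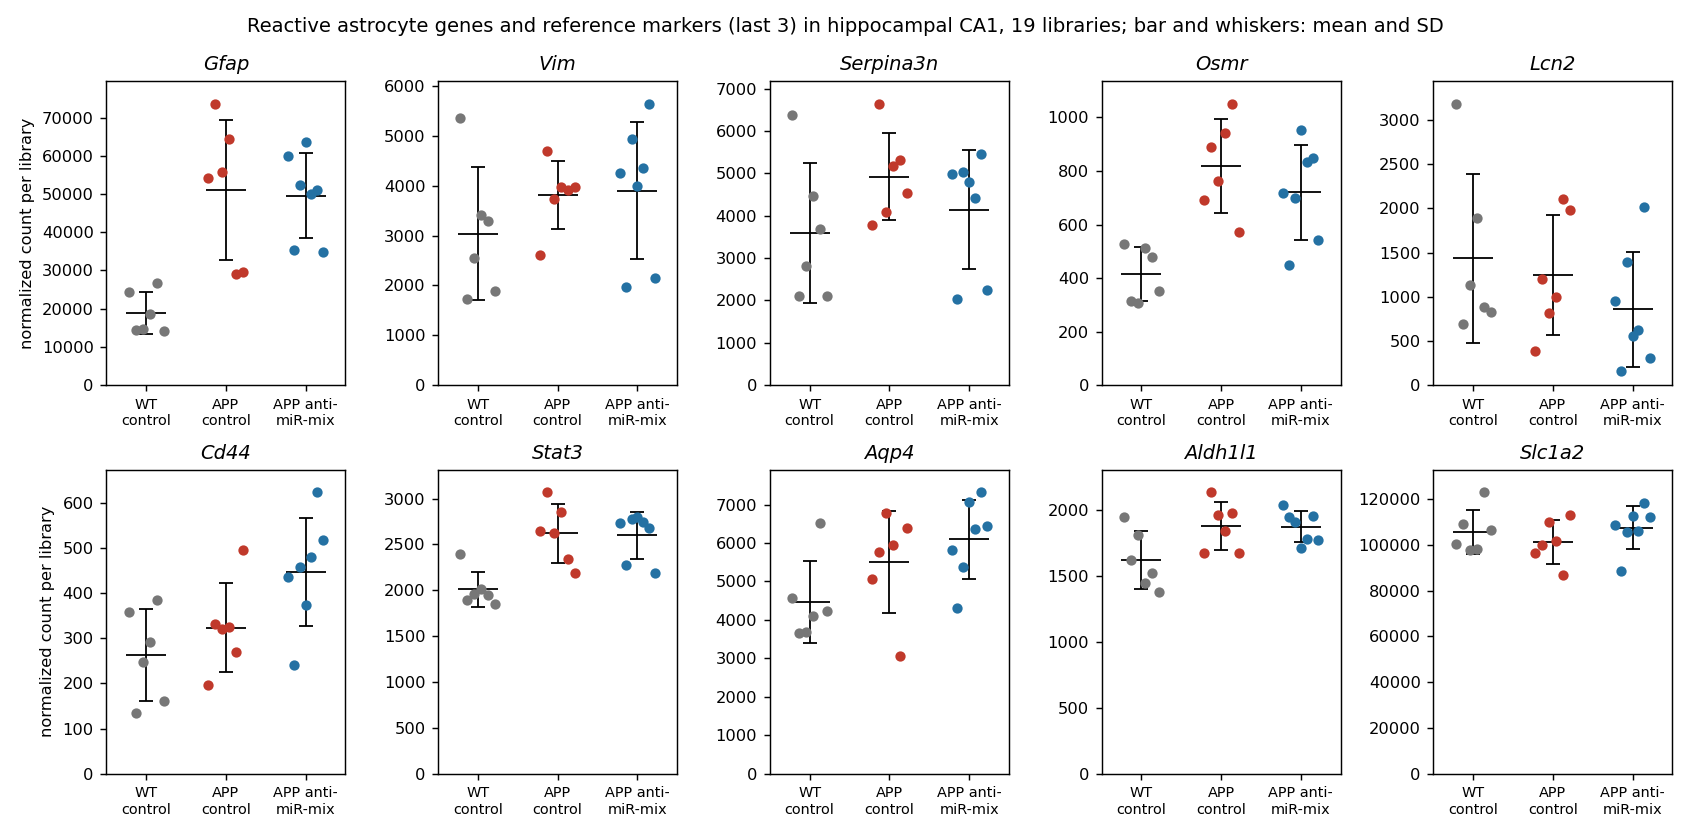
Normalized counts (y axis, from 0) of the 10 genes in each of the 19 libraries, by group (x axis); the horizontal bar is the group mean and the whiskers are the SD. Gfap in APP control runs from 29047 to 73661 and lies wholly above WT control, which ends at 26602, whereas the groups overlap for Lcn2, Vim and Serpina3n.

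Total counts lay between 19362343 and 37018917 per library, so that the lowest count of any of the 10 genes in any library was 89, for Cd44, and counting error was small beside the spread between samples. Mouse Thy1, which is read together with transgenic Thy1 sequence, lay between 18120 and 20730 normalized counts in the wild-type libraries, between 36150 and 62870 in APP control and between 43200 and 54140 in the mix group, so that each transgenic library was above each wild-type library. The 5 CA1 marker genes were detected in every library, with a summed level of 21700 to 35440 normalized counts. In bulk tissue, more cells of a type and more RNA per cell cannot be told apart, and this holds for every gene below. Of the 19297 genes tested, 908 (4.71%) passed an adjusted p of 0.05 in APP control against WT control and 706 (3.66%) passed it as higher. In the mix group against APP control 0 genes (0%) passed, and 552 had an unadjusted p under 0.05. With edgeR the numbers were 0 and 572. In the mix group against WT control 1727 genes (8.95%) passed, 1078 of them (5.59%) as higher.

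Of the 10 genes, 3 rose in APP control against WT control, namely Gfap, Osmr and Stat3, and none fell. The other 4 reactive genes and the 3 reference markers did not pass. Between the transgenic groups, the mix group against APP control, none of the 10 passed. The median log2 fold change of the 7 reactive genes in APP control against WT control was 0.38 and that of the 3 reference markers was 0.21, beside −0.01 over all genes tested.

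Gfap encodes the main intermediate filament protein of astrocytes and is the usual marker of reactive astrocytes (ENSMUSG00000020932, chr11:102887336-102900912, minus strand). In WT control its lowest, median and highest normalized counts were 14152, 16555 and 26602. In APP control they were 29047, 55037 and 73661, and in the mix group 34864, 50921 and 63477. Each of the 13 transgenic libraries was above each of the 6 wild-type libraries, a separation that 1.2% of the tested genes showed for APP control and 2.52% for the mix group. Within APP control, replicates 5 and 6 stood at 29047 and 29509 and the other 4 between 54285 and 73661, and the same 2 libraries had the lowest Thy1 of the group, 45171 and 36153. The rise was 2.72-fold in APP control (log2 fold change 1.44, SE 0.23, DESeq2 adjusted p = 4.08e-08) and 2.64-fold in the mix group (log2 1.40, SE 0.22, adjusted p = 1.75e-08). Between the latter and APP control the log2 difference was −0.04, with a 95% interval from −0.47 to 0.38, which is 0.722-fold to 1.30-fold.

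The RefSeq promoter of Gfap, 250 bases before and 50 after the start site (chr11:102897151-102897450, GRCm38.p6, minus strand), is shown because Gfap is a known STAT3 target. The capitals mark its match to the STAT motif TTCNNNGAA, which begins 2 bases before the start site.

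Gfap promoter: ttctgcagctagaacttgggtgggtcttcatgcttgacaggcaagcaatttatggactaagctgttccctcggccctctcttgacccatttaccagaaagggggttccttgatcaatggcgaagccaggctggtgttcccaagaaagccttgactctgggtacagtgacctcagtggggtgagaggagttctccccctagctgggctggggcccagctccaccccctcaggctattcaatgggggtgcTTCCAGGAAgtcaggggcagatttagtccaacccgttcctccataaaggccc

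Promoter sequences were given for 9 of the 10 genes, all but Aqp4. Of these, the Gfap promoter alone matched TTCNNNGAA, which 8.3% of all 32851 promoters do on either strand. An AP-1 and an NF-kB motif were also searched on both strands. The first, TGANTCA, occurred in 7.81% of all promoters and, among the 9, in that of Osmr. The second, GGG, any 2 bases and TTTCC, occurred in 1.63% of all promoters and, among the 9, in those of Serpina3n and Vim. These matches describe letters in the windows and are no evidence of binding.

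Osmr encodes the receptor chain for oncostatin M (ENSMUSG00000022146, chr15:6813577-6874969, minus strand). Its normalized counts were 306 at the lowest, 416 at the median and 528 at the highest in WT control. They were 573, 827 and 1052 in APP control and 449, 719 and 954 in the mix group. All 6 APP control libraries lay above the wild-type range, and so did 6 of the 7 mix libraries. Osmr rose 1.97-fold in APP control (log2 0.98, SE 0.19, adjusted p = 1.88e-05) and 1.73-fold in the mix group against WT control (log2 0.79, adjusted p = 0.000453). The difference between the transgenic groups was −0.18 on the log2 scale (95% interval −0.54 to 0.17). Its promoter (chr15:6874264-6874563, minus strand) is shown with the AP-1 match in capitals, 4 bases into the transcript.

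Osmr promoter: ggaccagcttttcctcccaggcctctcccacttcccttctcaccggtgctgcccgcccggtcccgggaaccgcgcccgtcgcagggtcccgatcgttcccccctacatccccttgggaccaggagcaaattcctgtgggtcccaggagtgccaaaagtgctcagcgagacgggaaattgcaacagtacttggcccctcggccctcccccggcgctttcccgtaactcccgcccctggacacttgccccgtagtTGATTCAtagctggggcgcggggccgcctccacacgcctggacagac

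Stat3, the transcription factor downstream of OSMR and gp130 (ENSMUSG00000004040, chr11:100885098-100939540, minus strand), moved least of the 3, with a small spread between libraries. The lowest, median and highest normalized counts were 1855, 1956 and 2392 in WT control, 2191, 2638 and 3069 in APP control and 2189, 2732 and 2795 in the mix group. The groups overlapped only through WT control 1, which at 2392 exceeded 2 of the 6 APP control libraries, and 34 of the 36 pairs of an APP control and a WT control library had the higher count in APP control. The rise was 1.30-fold in APP control (log2 0.38, SE 0.09, adjusted p = 0.000918) and 1.29-fold in the mix group (log2 0.37, adjusted p = 0.000611). The call was lost when libraries were scaled to the 3 reference markers instead of all genes (log2 0.25, adjusted p = 0.36 in APP control), a scaling under which the median of all genes was −0.14. Stat3 shares 72 exon bases with Stat5a on the other strand, and reads there cannot be told apart without strand.

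Vim and Serpina3n did not pass the test. Vim encodes vimentin, the second filament protein of reactive astrocytes (ENSMUSG00000026728, chr2:13573927-13582826, plus strand), and had 1735, 2917 and 5365 normalized counts as lowest, median and highest in WT control, 2604, 3948 and 4705 in APP control and 1968, 4253 and 5651 in the mix group. Serpina3n encodes a secreted serine protease inhibitor that is among the strongest reactive astrocyte genes after injury (ENSMUSG00000021091, chr12:104406729-104414329, plus strand), and had 2095, 3248 and 6373 in WT control, 3784, 4850 and 6649 in APP control and 2026, 4798 and 5455 in the mix group. For both genes WT control 1 was the highest wild-type library and reached into the range of the transgenic groups. The log2 differences of APP control against WT control were 0.33 for Vim (95% interval −0.21 to 0.87, adjusted p = 0.707) and 0.46 for Serpina3n (−0.09 to 1.01, adjusted p = 0.502). Against APP control, the mix group differed by 0.03 for Vim (−0.49 to 0.55) and by −0.25 for Serpina3n (−0.78 to 0.28). In the wild-type comparison of the mix group the values were 0.36 (adjusted p = 0.50) and 0.20 (adjusted p = 0.772). In the comparisons of APP control and the mix group with WT control, the values without WT control 1 were 0.57 and 0.60 for Vim and 0.70 and 0.45 for Serpina3n. Without WT control 2 they were 0.21 and 0.24 for Vim and 0.34 and 0.089 for Serpina3n, and none of these passed. Vim passed in the mix group without both WT control 1 and WT control 5 (log2 0.71, adjusted p = 0.0437). Leaving out the highest wild-type library raises the value by itself, so this call is not independent of that choice. The calls over all genes in that comparison also went from 1727 to 1958 (of 19301 tested).

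Their promoters (Vim, chr2:13574061-13574360; Serpina3n, chr12:104406458-104406757; both on the plus strand) are shown because these were the most alike of the 10 genes across libraries. The capitals mark the NF-kB match, which reads on the opposite strand in Vim.

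Vim promoter: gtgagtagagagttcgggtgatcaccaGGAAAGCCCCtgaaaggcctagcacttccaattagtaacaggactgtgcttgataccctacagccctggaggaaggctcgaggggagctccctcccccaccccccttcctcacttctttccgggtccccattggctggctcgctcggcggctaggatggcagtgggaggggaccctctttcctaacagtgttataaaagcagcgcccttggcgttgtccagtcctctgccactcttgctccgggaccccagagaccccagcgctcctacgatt
Serpina3n promoter: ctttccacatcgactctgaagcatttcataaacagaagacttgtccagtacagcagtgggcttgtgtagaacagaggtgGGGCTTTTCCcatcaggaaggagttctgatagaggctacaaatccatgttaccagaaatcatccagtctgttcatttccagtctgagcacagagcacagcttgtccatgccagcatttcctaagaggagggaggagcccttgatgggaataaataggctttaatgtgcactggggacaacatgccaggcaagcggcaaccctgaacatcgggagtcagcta

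Lcn2 encodes lipocalin 2, an iron-binding protein secreted by reactive astrocytes and also stored in neutrophil granules (ENSMUSG00000026822, chr2:32384633-32388252, minus strand). It was the most variable of the 10. The lowest, median and highest normalized counts were 692, 1005 and 3189 in WT control, 381, 1096 and 2107 in APP control and 161, 626 and 2012 in the mix group, a 12.5-fold spread within the last group. No direction could be read: the log2 difference of APP control from WT control was −0.20 with a 95% interval from −1.28 to 0.87, and it was 0.20 without WT control 1. The mix group differed from APP control by −0.54 (−1.58 to 0.50) and from WT control by −0.74 (adjusted p = 0.486). The highest Lcn2 of APP control was in replicate 5, the library in which the 11 neutrophil markers summed to 3666 normalized counts, against 14.7 to 133 in the other 18 libraries. In it S100a9 had 1523 and S100a8 1210 normalized counts. WT control 1, the highest of all libraries in Lcn2 at 3189, had a neutrophil sum of 19.6. APP control 6 had 1982 for Lcn2 and a sum of 44.0. Of the 11 markers, 1 (Elane) had no more than 3 counts in any library. The part of neutrophil RNA in Lcn2 was not tested.

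Cd44, the hyaluronan receptor, is raised in reactive astrocytes and is also carried by leukocytes (ENSMUSG00000005087, chr2:102811141-102901665, minus strand). Its lowest, median and highest normalized counts were 135, 270 and 385 in WT control, 197, 324 and 496 in APP control and 240, 457 and 624 in the mix group, so that 5 of the 7 mix libraries exceeded every wild-type library. It was 1.69-fold higher in the mix group than in WT control (log2 0.76, SE 0.24, adjusted p = 0.0221) and 1.23-fold higher in APP control, which did not pass (log2 0.29, adjusted p = 0.721). The test of the difference itself, the mix group against APP control, gave a log2 value of 0.47 with a 95% interval from −0.002 to 0.93, an unadjusted p of 0.0511 in the model across all genes and an adjusted p of 1 (DESeq2). The Cd44 call against WT control was lost with edgeR (log2 0.76, adjusted p = 0.0654), with the replicate number as a block (log2 0.70, 0.0922) and without WT control 2, WT control 6 or mix 6 (log2 0.63, 0.65 and 0.66, adjusted p = 0.0695, 0.0845 and 0.0791).

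**Figure D2:**
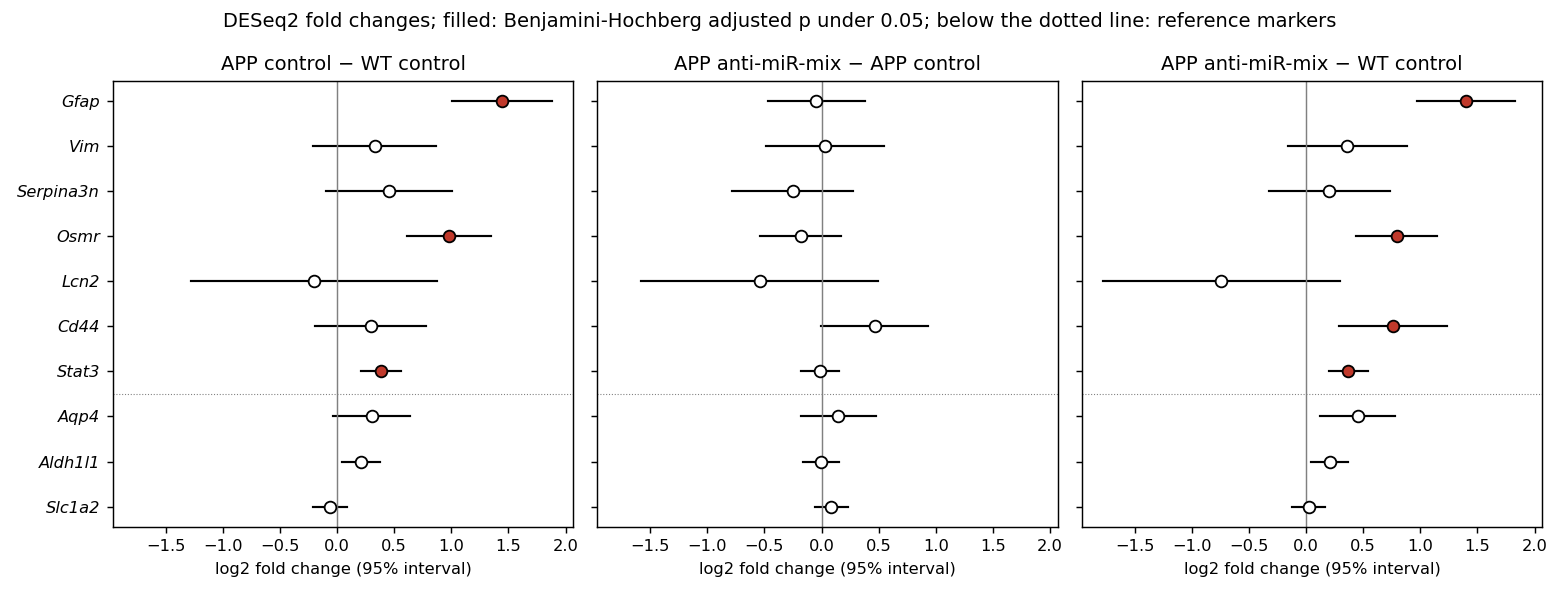
Log2 fold changes (x axis) of the 10 genes in the 3 comparisons, with 95% intervals; filled points passed an adjusted p of 0.05, and genes below the dotted line are the reference markers. Gfap, Osmr and Stat3 are filled in both comparisons with WT control, Cd44 only in that of the mix group, and each interval in the middle panel includes 0.

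In the DESeq2 fit by group, the reference markers did not pass in any comparison, but Aldh1l1 and Aqp4 were near the threshold and passed in some other fits. Slc1a2 (ENSMUSG00000005089, chr2:102658659-102790784, plus strand) had a small spread, with 97917 to 123000 normalized counts in WT control, 86653 to 113250 in APP control and 88796 to 118390 in the mix group, and a log2 difference of −0.06 in APP control (95% interval −0.21 to 0.09). Aqp4, the water channel of astrocyte endfeet (ENSMUSG00000024411), had 3648, 4162 and 6526 as lowest, median and highest in WT control, 3068, 5865 and 6771 in APP control and 4313, 6373 and 7320 in the mix group. Aqp4 differed by 0.30 in APP control (adjusted p = 0.438) and by 0.45 in the mix group (adjusted p = 0.0627). Aldh1l1, a folate enzyme found throughout the astrocyte population (ENSMUSG00000030088, chr6:90486427-90600203, plus strand), had medians of 1571, 1903 and 1910 in the 3 groups and differed by 0.21 in both comparisons with WT control (adjusted p = 0.156 and 0.0934). Aldh1l1 passed in APP control against WT control without WT control 1 (log2 0.27, adjusted p = 0.0152). In the mix group against WT control, Aqp4 passed without WT control 5 (log2 0.59, adjusted p = 0.00373) and Aldh1l1 without WT control 1 (log2 0.27, adjusted p = 0.00882). In each case the library left out was the highest wild-type library of that gene, which raises the value by itself. In that comparison the calls over all genes were 2012 without WT control 1 and 1639 without WT control 5, beside 1727.

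Aldh1l1 shares 105 exon bases with Gm45901 on the same strand and 499 with Gm15756 on the other, and Slc1a2 shares 189 with Gm13872 on the other, so that reads there may be split or misassigned.

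When each gene was set against the mean log2 level of the 3 reference markers in the same library, Gfap in both transgenic groups still lay wholly above WT control. The log2 ratio was 1.00 ± 0.30 in WT control (0.73 to 1.34), 2.26 ± 0.51 in APP control (1.47 to 2.78) and 2.19 ± 0.30 in the mix group (1.68 to 2.52). The mean difference between APP control and WT control was 1.26 on this scale, beside 1.44 in the fit. For Osmr the ratio was −4.48 ± 0.32, −3.64 ± 0.43 and −3.93 ± 0.305, with overlapping ranges, and for Stat3 it was −2.18 ± 0.16, −1.94 ± 0.205 and −2.04 ± 0.14, also overlapping. The reference level itself was 13.1 ± 0.14, 13.3 ± 0.18 and 13.4 ± 0.12 on the log2 scale.

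With the group means removed, so that differences between the groups play no part, Vim and Serpina3n were almost parallel over the 19 libraries (Pearson's r = 0.971, Spearman's rho = 0.972, r = 0.953 without the 2 libraries farthest out). Lcn2 varied with Vim (r = 0.865) and with Serpina3n (r = 0.819), and Osmr with Serpina3n (r = 0.820). Gfap was most like Stat3 among the 10 (r = 0.864, rho = 0.826, r = 0.825 without the 2 farthest). Its r was 0.607 with Serpina3n, 0.588 with Osmr and 0.551 with Vim, and these became 0.773, 0.779 and 0.726 without APP control 5 and 6, the 2 libraries farthest out in Gfap. With Lcn2 it was 0.135 (rho = 0.137), and 0.445 without the same 2 libraries. Of the reference markers, Aqp4 and Slc1a2 varied together (r = 0.867), and Aldh1l1 with neither (r = −0.213 and −0.289). These values describe 19 libraries whose genes share the same dissection, RNA and depth, and are given without a test.

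**Figure D3:**
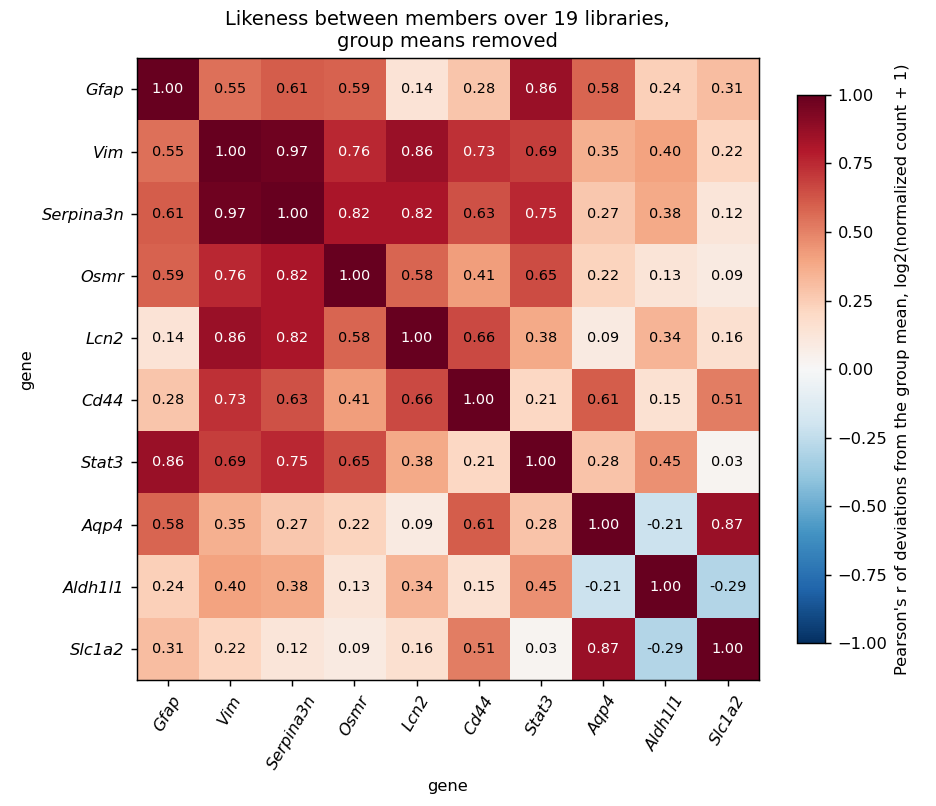
Pearson's r between each pair of the 10 genes (both axes) over the 19 libraries, computed on log2(normalized count + 1) after subtracting the group means. Vim and Serpina3n have the highest r of all pairs, 0.971, Gfap and Stat3 have 0.864, Aqp4 and Slc1a2 0.867, and Osmr and Lcn2 each about 0.82 with Serpina3n.

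Within APP control, replicates 5 and 6 had the lowest Gfap of that group, 29047 and 29509 normalized counts, and the highest Lcn2, 2107 and 1982. Replicate 1 had 54285 for Gfap and the lowest Lcn2, Vim, Serpina3n and Cd44 of the group. Within APP control the correlation of Gfap with Lcn2 was −0.620 over 6 libraries, whereas it was 0.501 in WT control and 0.686 in the mix group, and the differences between these values were not tested. Replicates 2 and 7 of the mix group were lowest in Gfap, Vim, Serpina3n, Osmr and Lcn2 alike. They were also lowest of that group in summed microglia markers, at 31030 and 30520, and oligodendrocyte markers, at 160000 and 137100. In the astrocyte, neutrophil, choroid plexus and CA1 sums they were not the lowest pair.

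The genes whose library-to-library pattern was most like that of Gfap, among 14091 genes with a mean of at least 50 normalized counts, were Cd37 (r = 0.970), Cyth4 (0.964), Fcer1g (0.961), Ly86 (0.958) and Inpp5d (0.957), which in brain are known from microglia and other leukocytes. Stat3 came in at rank 151 and the other members behind it. For Serpina3n the nearest were Vim (0.971), Tnfrsf1b (0.952), Csf2rb2 (0.934), S1pr3 (0.926) and Tagln2 (0.926). For Slc1a2 they were Gja1 (0.933), which encodes the astrocyte gap junction protein connexin 43, Jam2 (0.902), Myo6 (0.894), Gm6145 (0.887) and Scarb2 (0.884), with Aqp4 at rank 12.

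Microglial markers moved with Gfap. Of the 13 measured, 11 rose in APP control against WT control with a median log2 fold change of 1.09, and 12 rose in the mix group. The 2 that did not pass in APP control were P2ry12 and Tmem119. Csf1r, the most abundant of the 13 and the receptor that microglia depend on, rose by 0.92 on the log2 scale. The summed level was 12930 to 20440 normalized counts in WT control, 20140 to 49390 in APP control and 30520 to 50410 in the mix group, and no marker was at 0. APP control 5 and 6, lowest in Gfap, were also lowest here, at 20140 and 24450. The part of microglial RNA in the levels of the 10 genes was not tested. The 18 astrocyte markers had a median log2 fold change of 0.04 in APP control against WT control and none passed. In the mix group against WT control the median was 0.099 and 1 passed, Atp1b2 (log2 0.32, adjusted p = 0.000272), a sodium pump subunit. Without APP control 5, Atp1b2 also passed in APP control, and 3 of the 18 passed in the mix group (Atp1b2, Gjb6 and Mlc1). They were Atp1b2, Mlc1 and Sox9 without WT control 1 and WT control 5. Their summed level was 152600 to 173900 in WT control, 167400 to 184800 in APP control and 167800 to 189600 in the mix group.

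**Figure D4:**
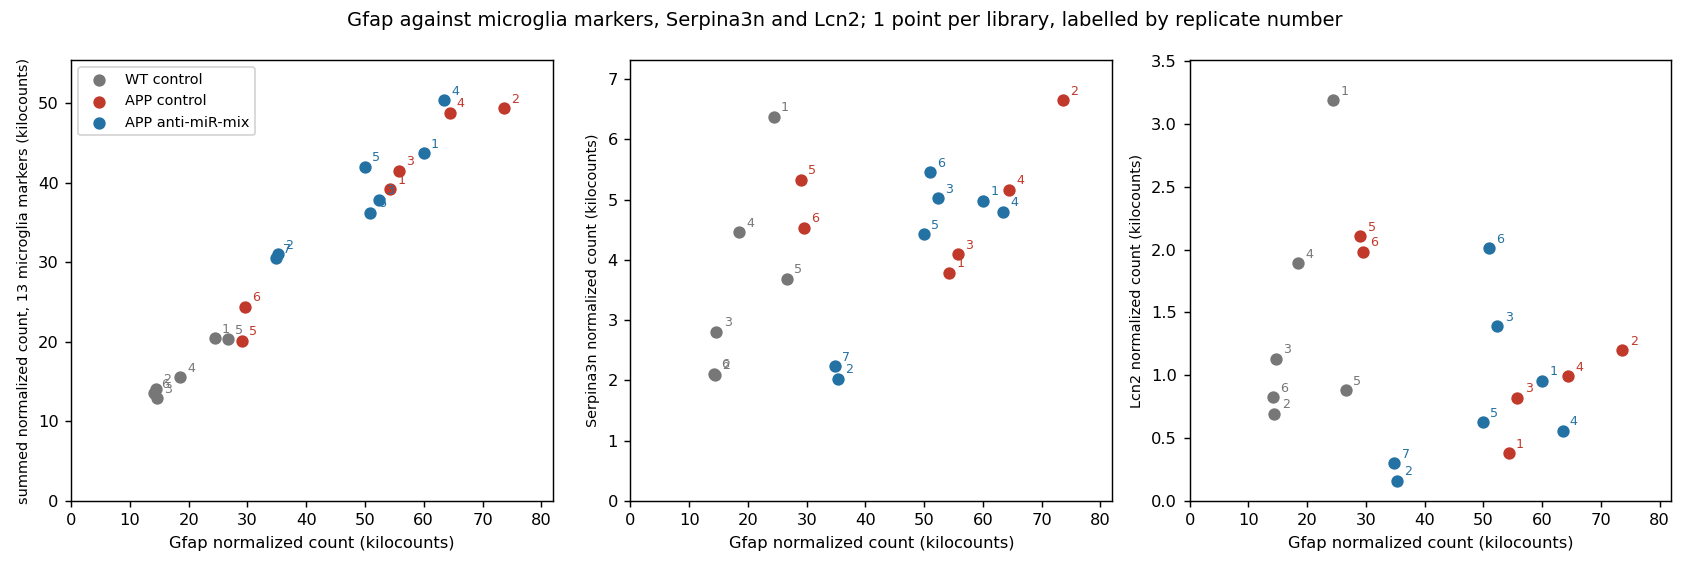
Normalized counts of Gfap (x axis) in each library against the summed counts of 13 microglia markers, against Serpina3n and against Lcn2 (y axes), drawn in kilocounts; points are libraries, numbered by replicate. Libraries high in Gfap are also high in the microglia markers, whereas APP control 5 and 6 are low in Gfap at 29047 and 29509 and high in Lcn2 at 2107 and 1982.

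Genes of the IL-6 family pathway were examined from ligand to target. Which cells carried them was not tested in this bulk RNA. Of the 6 tested IL-6 family ligands 1 rose in APP control, Osm, the gene of oncostatin M itself: its mean normalized count was 9.48 ± 5.47 in wild-type animals, 26.1 ± 3.38 in APP control animals and 25.6 ± 7.26 with the mixture (log2 1.41, adjusted p = 0.000178), a low level. Of the 6 receptor genes, Il6ra, which binds interleukin 6, rose beside Osmr (251.7 ± 29.3 to 410 ± 83.9, log2 0.70, adjusted p = 2.90e-06). Il6st, which encodes gp130, did not pass (log2 0.21, adjusted p = 0.0604). In the mix group against WT control Il6st passed (log2 0.28, adjusted p = 0.0018). Of the 11 JAK and STAT genes, Stat6 rose beside Stat3 (log2 0.46, adjusted p = 0.00215). Of the 8 inhibitors, Ptpn6, a phosphatase abundant in blood-derived and microglial cells, rose (223 ± 67.1 to 520 ± 155, log2 1.22, adjusted p = 7.52e-07). Socs3, the feedback inhibitor that STAT3 induces, was at 120 ± 48.6 normalized counts in wild-type and 171 ± 50.2 in APP control animals and did not pass (log2 0.51, adjusted p = 0.225).

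Of 14 STAT3 target genes, Socs3 again among them, 2 rose in APP control and 1 fell. The metallothioneins Mt2 and Mt1 rose by 0.35 each (adjusted p = 0.0410 and 0.0487), and Junb, a component of AP-1, fell by 0.40 on the log2 scale (adjusted p = 0.0247). The median of the list was 0.27. Without WT control 1 and WT control 5, the wild-type libraries with the highest sums of microglia and astrocyte markers, 6 of the 14 rose and none fell, and 5 of the 11 JAK and STAT genes rose in place of 2. Those libraries were picked for that height, so this count is not independent of it, and the calls over all genes also went from 908 to 1176 (of 19301 tested). Without APP control 5, Mt1 was lost and 1 of the 14 rose, while the calls over all genes were 910. None of the genes on these lists passed in the mix group against APP control.

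Lists of astrocyte states were also examined. Of 13 pan-reactive genes, which respond to injury and inflammation alike, 3 rose in APP control, namely Gfap, Osmr and Aspg, an asparaginase. Only 7 of the 13 are outside the 10 genes described here. Of these 7, Aspg alone rose, and their median log2 fold change was 0.08. Aspg went from 163 ± 62.3 to 510 ± 153 normalized counts (log2 1.64, adjusted p = 2.88e-10). Of 12 tested genes of the A1 list, seen with inflammatory stimuli, 2 rose and 10 had positive values. Srgn rose from 146 ± 38.9 to 313 ± 59.5 normalized counts and Ggta1 from 287.5 ± 89.7 to 543 ± 98.4. C3 of this list did not rise (log2 −0.20, adjusted p = 0.958). In the mix group against WT control the same 2 rose and Amigo2 fell (adjusted p = 0.046). The part of microglial RNA in these genes was not tested. Without WT control 1 and WT control 5 the count in APP control was 5, while the calls over all genes went from 908 to 1176. Of 11 tested genes of the A2 list, seen after ischaemia, 1 rose: Cd14, an endotoxin co-receptor that is also a gene of microglia (log2 1.70, adjusted p = 5.61e-14).

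Disease-associated astrocytes are a state described around amyloid. All 13 genes of that list had positive values and 9 rose in APP control, Gfap and Osmr among them, with a median log2 fold change of 0.46. The other 7 were C4b, Ctsb, Cd9, Ggta1, Igfbp5, Apoe and Cst3. Complement C4b rose from 5836 ± 2673 to 11870 ± 3122 normalized counts (log2 1.02, adjusted p = 0.00636), and the protease cathepsin B, Ctsb, from 21430 ± 1866 to 28880 ± 5989 (log2 0.43, adjusted p = 0.0114). Several of these genes, Ctsb, Apoe and Cst3 among them, are also expressed by microglia. The same 9 genes rose in the mix group against WT control, and against APP control none of the 13 passed, with a median of −0.0088.

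**Figure D5:**
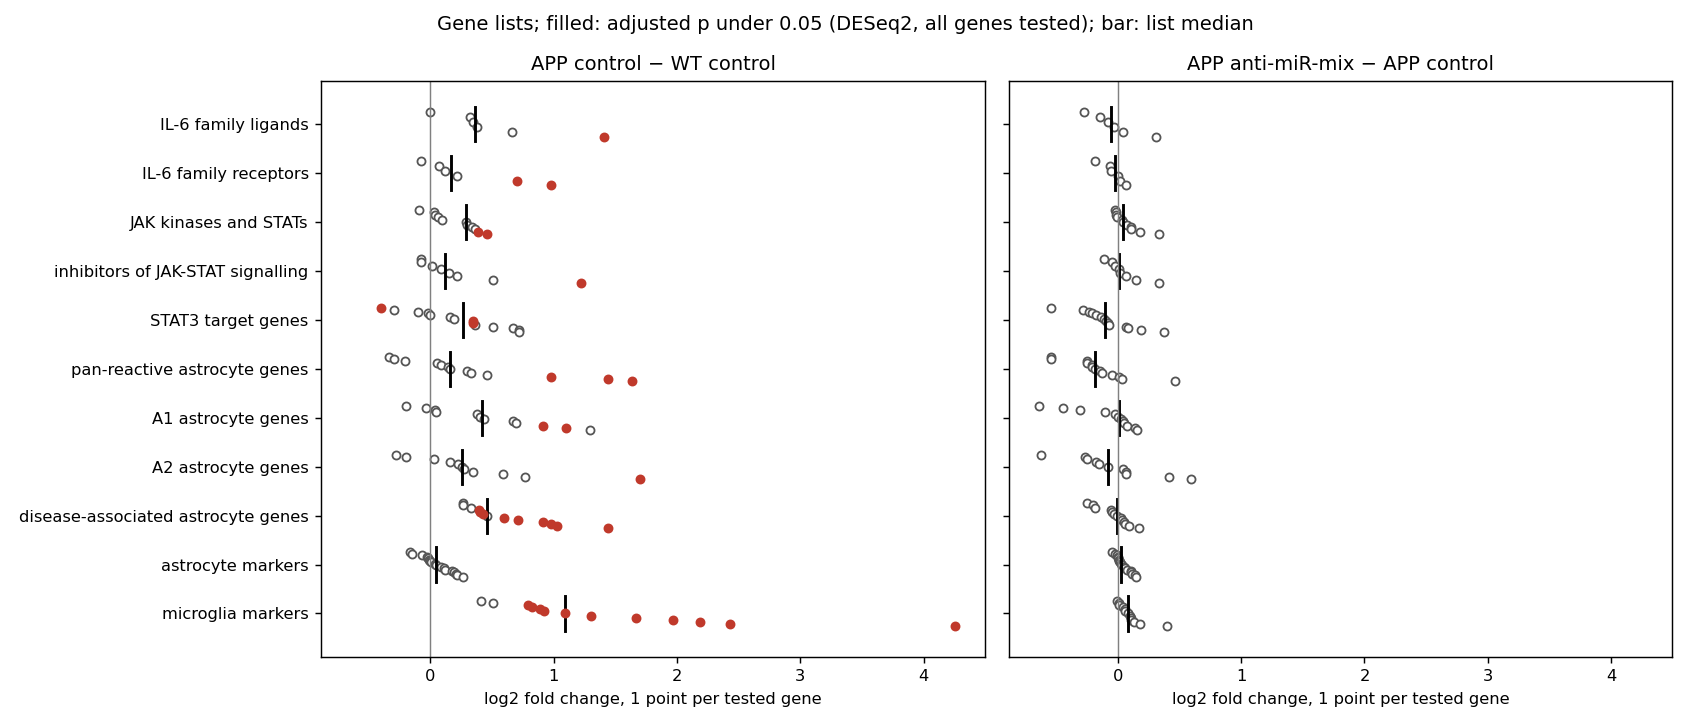
Log2 fold changes (x axis) of the tested genes of 11 lists (y axis) in APP control against WT control and in the mix group against APP control; filled points passed an adjusted p of 0.05 and the bar is the list median. The microglia markers (median 1.09) and the disease-associated astrocyte genes (median 0.46) lie to the right in the first panel, and no point is filled in the second.

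The functional neighbours of the 10 genes were counted in the same way. Among 14 intermediate filament genes Gfap was the only one to pass in APP control. Of the 11 Serpina3 genes, a cluster of near-identical copies on chromosome 12 between which reads may be split, 7 were too low to be tested, and the levels of the other 3 beside Serpina3n were 64.9, 7.61 and 17.0 normalized counts for Serpina3g, Serpina3h and Serpina3i in WT control, with none passing. None of the 3 receptors and partners of Lcn2 passed. Among 14 ligands and partners of Cd44, Srgn rose as given above, Msn, which encodes the membrane-cytoskeleton linker moesin, rose (log2 0.52, adjusted p = 0.0132) and Has3, a hyaluronan synthase, fell by 0.50 (adjusted p = 0.000557). None of the 9 genes of the Aqp4 anchoring complex and none of the 10 genes of glutamate uptake and recycling passed in APP control. In the mix group against WT control Dmd and Sntb1 of the first list fell (adjusted p = 0.0467 and 0.0392) and Slc1a4 of the second rose (0.0262), and none of these 3 passed without WT control 1 and WT control 5. Glul, the glutamine synthetase of astrocytes, was at 33530 ± 2786 normalized counts in wild-type and 34620 ± 3541 in APP control animals.

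Markers of other cells that the dissection could hold were counted as well. Of 10 endothelial and pericyte markers, Flt1 and Cdh5 rose in APP control, and Flt1 alone without APP control 5. Of 8 neuron markers Gad1 and Gad2, the enzymes of inhibitory neurons, fell. None of the T cell, meningeal fibroblast, ependymal, choroid plexus, oligodendrocyte, blood, dentate gyrus or CA1 markers passed in that comparison. In the mix group against WT control, where Cd44 passed, 4 of the 8 meningeal fibroblast markers also rose (Col1a1, Col1a2, Igf2 and Ogn), with a summed level of 1947 to 5019 normalized counts in WT control and 2772 to 7036 in the mix group and none at 0. Without WT control 1 and WT control 5, 1 of the 8 (Ogn) rose. Their part in the level of Cd44 was not tested. The choroid plexus markers were uneven, from 476 to 2424 normalized counts in WT control with the highest in replicate 5, which was also the wild-type library highest in Gfap and Aqp4. Without WT control 5 and mix 6, the libraries highest in choroid plexus genes, Gfap, Osmr and Stat3 passed in both comparisons with WT control.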

How the data were processed

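RNA-seq of 19 CA1 samples was analysed (WT control n = 6, APP control n = 6, APP anti-miR-mix n = 7). According to the study and the processing notes, the authors checked 50 nt single-end reads with FastQC 0.11.5, aligned them to mm10 with STAR 2.5.2b and counted them per gene with featureCounts (Subread 1.5.1). The annotation release and the strand setting are not given in the sources used here. The deposited count files hold raw counts, whole numbers of reads per gene, for 48709 genes in each library, of which 14228 had no read in any. The authors also deposited a table of log2 values for 18825 genes, which differ from the counts by an adjustment for a whole number per library whose meaning is not stated. It was used only for an alternative.

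Ensembl identifiers were paired with symbols in GENCODE M21 (48349 matched). The filter asked for 5 or more counts in 50% or more of the libraries. DESeq2 1.42.0 (Wald test, R 4.3.3) was fitted to all 19 samples with the group as the only term. An adjusted p (Benjamini-Hochberg over all tested genes) under 0.05 was called, and intervals are 95% intervals from the SE. Normalized counts are counts divided by DESeq2's size factors, and TPM was computed from merged exon lengths. A list is described by its calls and median. Likeness is the correlation of log2(normalized count + 1) after subtracting group means. Genes other than the 10 were named by a rule. Of each gene list these were the called genes with the smallest adjusted p, or the most abundant genes where none was called. Of marker lists of other cell types they were the most abundant genes, called or not, and of the Serpina3 cluster the tested genes. The 5 genes most like Gfap, Serpina3n and Slc1a2 were also named. P2ry12, Tmem119, Col1a1, Col1a2, Ogn, Flt1, Cdh5, Gad1, Gad2, Cd9, Igfbp5, Apoe, Cst3, Socs3, C3, Amigo2, Il6st, Atp1b2, Gjb6, Sox9, Dmd, Sntb1, Slc1a4 and Elane were named in addition, after their values were seen. Scripts were tested on simulated counts. Some items are not reported here. The 10 genes, the lists and the tests were chosen with earlier results of these data known.

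Total counts were 19362343 to 37018917 per library. The labels do not tie each sample to a separate animal, so p-values measure the spread between these samples, which may be partly technical. Within groups, even the closest 2 libraries had a chi-square per gene of 4.94, so no library was treated as a duplicate. Alternatives were edgeR 4.0.16, limma 3.58.1 on the deposited log2 table, other scalings and filters, the adjustment number as a term, a replicate block and left-out libraries. Both comparisons with WT control share its 6 libraries, and both comparisons with APP control share theirs.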

Additional observations from a re-analysis of the deposited data

Results flagged for a closer look

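Among the 30 combinations of a gene and a group, 3 held 1 library that stood apart from the others by Dixon's criterion, which chance alone meets in about 1 of 20 groups. Stat3 in WT control 1 was 2391.9 normalized counts, and the other 5 libraries of the group had 1855.4 to 2010.4. Aqp4 in WT control 5 was 6526.4, and the others had 3648 to 4579.7. Slc1a2 in APP anti-miR-mix 2 was 88796, and the others had 105630 to 118390.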

How the results depend on the processing

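Over 32 alternative settings, 906 of 960 single-gene values kept their direction and side of the threshold, 30 changed sign, 7 lost a call and 17 gained one. The number of the 10 genes called was 2 to 4 in APP control against WT control, 0 throughout for the mixture against APP control, and 3 to 7 in APP anti-miR-mix against WT control, the 7 without WT control 1 and WT control 5. With those libraries left out, the calls over all genes in that comparison went from 1727 to 1958. Gfap and Osmr were called in every alternative of both comparisons with WT control. Stat3 lost its call only with size factors from the 3 reference markers (adjusted p = 0.36 in APP control, 0.231 in APP anti-miR-mix), a scaling that moved the median of all genes to −0.14 and −0.18 and the count over all genes in APP control from 908 to 429 (edgeR 621). That scaling turned Slc1a2 in APP anti-miR-mix against WT control to −0.15 (−0.0013 to 0.0715 with 1 replicate left out). Without WT control 1 and WT control 5, Lcn2 in APP control was 0.14 (−0.417 to 0.202 with 1 replicate left out).

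For the mixture against APP control, values near 0 changed sign. Gfap was 0.046 with the replicate block and 2e-04 with limma (−0.1641 to 0.0878 with 1 replicate left out). Vim was −0.0271 with reference scaling, −0.0789 without WT control 5 and APP anti-miR-mix 6, and −0.0379 with limma (−0.0796 to 0.146). Stat3 was 0.0279 with the block (−0.06 to 0.0359). Aldh1l1 was 0.0014 with edgeR and with TMM and 0.0091 with the block (−0.0354 to 0.0354). The causes were not tested. The labels do not say that samples with the same replicate number were paired, though such samples often share the authors' adjustment number too. Their deviations correlated at −0.157 to 0.353, −0.152 to 0.594 and 0.0142 to 0.482 in the 3 comparisons (medians 0.113, 0.235 and 0.311, beside 0.0197, −0.0163 and −0.0272 for other numbers). The block moved the count over all genes in APP control to 1222, and Cd44 in APP anti-miR-mix against WT control lost its call (adjusted p = 0.0922) while Aldh1l1 gained one (0.0364). With the adjustment number as a linear term, Aldh1l1 gained a call in APP control (0.0395), and Aqp4 (0.0349) and Aldh1l1 (0.0313) in APP anti-miR-mix against WT control. Leaving out libraries was in 2 cases added for the lists after the data were seen. Depth did not limit the 10 genes, whose lowest count was 89.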
